A study of Mus musculus with 9 samples.

Results

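The 8 genes Mfap3l, Mfap5, N4bp1, 2010109A12Rik, Fkbp8, Gucy2e, Bspry and Art1 were examined in mouse testis with and without protamine 2 (Prm2). They are 8 of the 38685 rows of the gene table and were found there by gene symbol. They were selected on the difference of their levels between Prm2-/- and Prm2+/+ testes. That difference is therefore a description of the genes and carries no test here. The values that chose them are those of the Prm2-/- and Prm2+/+ libraries, and the 3 Prm2+/- libraries are described against both.

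The study sequenced RNA from testes of wildtype (Prm2+/+), heterozygous (Prm2+/-) and homozygous Prm2-deficient (Prm2-/-) males, with 3 libraries per genotype described as biological replicates. All males were of the C57BL/6 strain, and the RNA came from whole testes without the tunica albuginea, the capsule of the organ. The mutant alleles had been made by CRISPR/Cas9 editing in oocytes, and which of the edited lines gave each library, as well as the age of the males, is not given in the sources used here. The RNA was read with QuantSeq, which counts polyadenylated transcripts near their 3′ end.

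Protamines are small arginine-rich proteins that replace histones in the nuclei of elongating spermatids, late after meiosis, and pack the DNA of sperm. Mfap3l and Mfap5 are named for microfibrils, the fibrillin-based threads of the extracellular matrix. Fkbp8 is a tail-anchored protein of the mitochondrial outer membrane, N4bp1 a binding partner and inhibitor of NEDD4-type ubiquitin ligases, Gucy2e a membrane guanylate cyclase best known from photoreceptors, Art1 an arginine ADP-ribosyltransferase best known from skeletal muscle, and Bspry a B-box and SPRY domain protein that binds 14-3-3 proteins.

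Levels are given as normalized counts, which are read counts divided by 1 size factor per library. The recovered counts summed to 3629929 to 4490411 per library, and all 8 genes passed the filter that left 14893 genes. Between 19028 and 20526 rows had a count in a library, with Prm2+/+ replicate 3 the lowest and the other 8 at 19873 or more. Prm2 itself had 29757, 29716 and 39665 normalized counts in Prm2+/+, 30174, 31011 and 34487 in Prm2+/-, and 34660, 36004 and 42766 in Prm2-/-. Its transcript level was thus not lower in the libraries labelled Prm2-/- and does not check the labels, so that genotypes are those of the labels. Of 43 tested marker genes of testicular, muscle and photoreceptor cells, 0 passed the threshold for a call in limma, edgeR or DESeq2 between Prm2-/- and Prm2+/+, and 4 (Tnp1, Acta2, Cnn1 and Col3a1, or 9.30%, beside 7.33% of all genes tested) had an unadjusted p under 0.05. The marker with the highest mean in its list had a log2 fold change (LFC) of -0.01 for Prm1 (spermatids), 0.08 for Piwil1 (spermatocytes), 0.02 for Clu (Sertoli cells) and 0.09 for Cyp17a1 (Leydig cells). The LFCs of all 43 ran from -0.76 (Cnn1) to 2.71 (Des, a peritubular marker, standard error 1.24). Those of the spermatid marker Akap4 and the Sertoli cell marker Amhr2 were 2.22 and 2.03 (standard errors 1.05 and 1.97). Des, Akap4 and Amhr2 each had high and low libraries within Prm2+/+, and Amhr2 also within Prm2-/- (539, 544 and 11.6 normalized counts). Des had 33.3, 0 and 0 normalized counts in Prm2+/+ and 13.6, 27.4 and 22.2 in Prm2-/-. In RNA of whole tissue, fewer cells of a type and less RNA per cell cannot be told apart.

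The 8 genes lie on 6 chromosomes, and 3 of them, Mfap3l, Fkbp8 and N4bp1, on chromosome 8. For 6 of the 8, RefSeq gave a promoter window of 300 bases on GRCm38.p6, 250 before and 50 from the transcription start. The 250 bases before the start are shown for Mfap3l and Gucy2e, which were high in the Prm2-/- libraries only, for Bspry, which was also high in 1 Prm2+/- library, and for N4bp1, which was low in the Prm2-/- libraries only. They are chr8:60632575-60632824 (plus strand), chr11:69237023-69237272 (minus strand), chr4:62479812-62480061 (plus strand) and chr8:86885259-86885508 (minus strand), in this order. Each is read 5′ to 3′ on the strand of its gene, and capitals mark matches on either strand to the TATA box (TATAAA), the CCAAT box (CCAAT), the GC box (GGGCGG) and the cAMP response element (TGACGTCA).
Mfap3l: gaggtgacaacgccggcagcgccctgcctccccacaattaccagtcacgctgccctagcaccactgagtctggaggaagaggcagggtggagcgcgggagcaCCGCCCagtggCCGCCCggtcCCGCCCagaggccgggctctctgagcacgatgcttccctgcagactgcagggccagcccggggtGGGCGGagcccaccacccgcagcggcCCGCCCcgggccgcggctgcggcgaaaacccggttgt
Gucy2e: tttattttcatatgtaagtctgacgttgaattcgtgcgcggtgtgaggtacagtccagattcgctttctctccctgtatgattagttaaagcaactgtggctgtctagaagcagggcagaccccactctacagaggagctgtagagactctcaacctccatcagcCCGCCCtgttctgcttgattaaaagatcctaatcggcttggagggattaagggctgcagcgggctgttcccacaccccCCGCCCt
Bspry: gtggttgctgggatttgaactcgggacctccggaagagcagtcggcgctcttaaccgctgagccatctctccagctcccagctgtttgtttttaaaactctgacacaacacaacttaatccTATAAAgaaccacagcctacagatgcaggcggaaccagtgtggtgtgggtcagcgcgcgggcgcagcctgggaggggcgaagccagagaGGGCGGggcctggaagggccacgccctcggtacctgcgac
N4bp1: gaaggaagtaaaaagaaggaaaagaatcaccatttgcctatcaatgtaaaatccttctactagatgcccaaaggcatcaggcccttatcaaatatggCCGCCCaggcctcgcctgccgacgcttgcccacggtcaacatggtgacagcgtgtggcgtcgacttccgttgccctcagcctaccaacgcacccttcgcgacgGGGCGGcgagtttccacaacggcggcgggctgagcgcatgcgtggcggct

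The GC box was found 5 times before Mfap3l, 2 times before Gucy2e, 2 times before N4bp1, and 1 time each before Bspry and Fkbp8. It occurs in 35.7% of all 32851 windows. The TATA box was found 1 time before Bspry, with its first base at -129 from the start, and 1 time before Art1, at -30, against 13.6% of all windows. The CCAAT box was found 2 times before Fkbp8 and before none of the others, against 37.4% of all windows. The cAMP response element, held by 1.79% of all windows, was in none of the 6. The GC content was 73.3% for Mfap3l, 64.0% for Fkbp8, 63.0% for N4bp1, 62.0% for Bspry, 55.3% for Art1 and 54.0% for Gucy2e, and the median of all windows was 52.7%. A match of letters is no evidence of binding. Mfap5 and 2010109A12Rik had no window.

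The genes named for microfibrils moved in opposite directions, with Mfap3l high and Mfap5 low in the Prm2-/- libraries. Mfap3l (ENSMUSG00000031647, chromosome 8, 60632827 to 60676729, plus strand, GRCm38) encodes a membrane protein that resembles the microfibril-associated protein MFAP3. It had 24.7, 10.7 and 9.94 normalized counts in Prm2+/+ replicates 1, 2 and 3, 62.3, 19.2 and 14.1 in Prm2+/- and 750, 701 and 746 in Prm2-/-. The 3 Prm2-/- libraries lay far above the other 6, and Prm2+/- replicate 1 was the highest of those 6. The means were 15.1 ± 8.31 (SD, n = 3) in Prm2+/+, 31.9 ± 26.5 in Prm2+/- and 732 ± 26.9 in Prm2-/-, a 48.4-fold ratio between the outer genotypes. The LFC, on log2 of the normalized count plus 1, was 5.62 (standard error 0.54) for Prm2-/- against Prm2+/+ and 0.85 (standard error 0.54) for Prm2+/- against Prm2+/+. The latter was 0.23 without Prm2+/- replicate 1.

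Mfap5 (ENSMUSG00000030116, chromosome 6, 122505845 to 122529290, plus strand) encodes a glycoprotein of elastic-fibre microfibrils. It had 84.6, 71.8 and 84.0 normalized counts in Prm2+/+, 62.3, 80.4 and 87.5 in Prm2+/- and 12.7, 14.2 and 9.50 in Prm2-/-. All 3 Prm2-/- libraries were below the lowest of the other 6, and the Prm2+/- libraries spread on either side of the Prm2+/+ range with 1 inside it. The means of 80.1 ± 7.21, 76.7 ± 13.0 and 12.1 ± 2.40 (SD, n = 3 each) put Prm2+/+ 6.60-fold and Prm2+/- 6.32-fold above Prm2-/-, with an LFC of -2.64 (standard error 0.20) between the outer genotypes. The Prm2-/- level rests on 37 recovered counts in the 3 libraries together (exact Poisson 95% interval 26.1 to 51.0), against 232 in Prm2+/+ (203 to 264); these intervals cover counting error only.

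A gene was called where its adjusted p (Benjamini-Hochberg) was under 0.05 and its LFC beyond 0.5. By this rule limma called 27 of the 14893 genes between Prm2-/- and Prm2+/+ (0.181%, with 0.154% higher and 0.0269% lower in Prm2-/-), 12 between Prm2+/- and Prm2+/+ (0.0806%, with 0.0604% higher and 0.0201% lower in Prm2+/-) and 26 between Prm2-/- and Prm2+/- (0.175%, with 0.148% higher and 0.0269% lower in Prm2-/-). A list held 20 other genes of microfibrils and elastic fibres or, like Mfap1a and Mfap1b, named for microfibrils. Of these, 11 were tested. Their median LFC of Prm2-/- against Prm2+/+ was -0.11, the value of Mfap1b, beside 0.02 over all genes tested. Between these genotypes 0 were called in limma, edgeR or DESeq2, and 1 had an unadjusted p under 0.05. That one gene was Ltbp3, a latent TGF-beta binding protein named after its values were seen, with means of 35.5 ± 3.71 in Prm2+/+, 24.8 ± 4.08 in Prm2+/- and 16.9 ± 1.89 normalized counts in Prm2-/- (LFC -1.03, adjusted p = 0.203 in limma). Fbn2, a fibrillin and the gene with the highest mean normalized count of the list (not scaled by length), had an LFC of -0.18 with a standard error of 0.16 (limma, adjusted p = 0.770). Mfap2 was at 0 in all 9 libraries. The summed level of 6 fibroblast markers, of cells that make microfibrils, was 217 to 249 in Prm2+/+, 251 to 268 in Prm2+/- and 259 to 315 in Prm2-/-. The ranges of Prm2+/- and Prm2-/- overlapped. Between Prm2-/- and Prm2+/+ the LFC was positive for 4 of the 6 and negative for Lum (-0.47) and Col1a1 (-0.39). None of the 6 was at 0 throughout, and 0 of 6 were called by limma, with 1 (Col3a1, LFC 0.75) at an unadjusted p under 0.05. The fibroblast marker with the highest mean, Dcn, had an LFC of 0.13 (standard error 0.15). For 6 peritubular markers the sums overlapped, at 701 to 792, 660 to 789 and 622 to 780 in the same order of genotypes. Of the 5 tested, 0 were called and 2 (Acta2 and Cnn1, LFC -0.27 and -0.76) had an unadjusted p under 0.05, while Actg2, the one with the highest mean, had an LFC of -0.11. Their part in the levels of Mfap5 was not tested.

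Fkbp8 was high and N4bp1 low in the Prm2-/- libraries, and both left the Prm2+/- libraries at the Prm2+/+ level. Fkbp8 (ENSMUSG00000019428, chromosome 8, 70527724 to 70535328, plus strand) belongs to the FK506-binding proteins, binds BCL2 at the mitochondrial surface and serves as a receptor of mitophagy. It had 22.8, 24.6 and 13.3 normalized counts in Prm2+/+, 21.8, 8.22 and 18.6 in Prm2+/- and 205, 195 and 156 in Prm2-/-. No Prm2-/- library came near the other 6, whose genotypes were interleaved. The means were 20.2 ± 6.11, 16.2 ± 7.07 and 185 ± 25.6 (SD, n = 3 each), so that Prm2-/- was 9.15-fold above Prm2+/+ and 11.5-fold above Prm2+/-, with LFCs of 3.17 and 3.53 (standard error 0.37 each).

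The start of Fkbp8 overlaps that of Kxd1, which lies on the opposite strand, by 233 bp, of which 224 are exonic in both. Kxd1, a subunit of a complex that positions lysosomes, had 2162, 2018 and 2308 normalized counts in Prm2+/+, 2117, 2169 and 2862 in Prm2+/- and 2325, 2206 and 3523 in Prm2-/- (LFC 0.28, adjusted p = 0.751 in limma). Its Prm2-/- libraries overlapped those of the other genotypes, unlike the Prm2-/- libraries of Fkbp8. Whether the counting used strand is not given in the sources used here.

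N4bp1 (ENSMUSG00000031652, chromosome 8, 86808160 to 86885258, minus strand) had 63.7, 53.6 and 78.5 normalized counts in Prm2+/+, 59.3, 65.8 and 55.7 in Prm2+/- and 10.9, 12.2 and 5.28 in Prm2-/-. The 3 Prm2+/- libraries all fell inside the Prm2+/+ range, and the 3 Prm2-/- libraries were below it. The means were 65.2 ± 12.5, 60.3 ± 5.11 and 9.44 ± 3.66 (SD, n = 3 each), and Prm2+/+ exceeded Prm2-/- 6.91-fold (LFC -2.72, standard error 0.29). The Prm2-/- value rests on 29 recovered counts (exact Poisson 95% interval 19.4 to 41.6), against 188 in Prm2+/+ (162 to 217).

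Of 24 other FKBP genes and mitophagy receptors, 21 were tested and 0 called between Prm2-/- and Prm2+/+ in limma, edgeR or DESeq2, with 2 at an unadjusted p under 0.05 and a median LFC of 0.16. One of these was Phb2, an inner-membrane mitophagy receptor named after its values were seen. Its levels were 32.3, 18.2 and 7.7 in Prm2+/+, 350.0, 10.0 and 18.6 in Prm2+/- and 338, 321 and 313 in Prm2-/- (LFC 4.19, adjusted p = 0.495 in limma), so that Prm2+/- replicate 1 stood with the Prm2-/- libraries. The other was Fkbp10 (LFC -2.27, adjusted p = 0.602 in limma). Fkbp4, with the highest mean of the list, had an LFC of 0.21 (standard error 0.15).

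Of 20 relatives of N4bp1 and NEDD4-type ligases, 14 were tested and 0 called by any of the 3 tools, with 1 at an unadjusted p under 0.05, Wwp2 (LFC 1.79, adjusted p = 0.607 in limma), and a median LFC of 0.17. N4bp2l2, with the highest mean, had an LFC of 0.04 (standard error 0.34).

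Gucy2e and Art1, both enzymes known chiefly from tissues other than testis, each had a group of libraries with few or no counts. Gucy2e (ENSMUSG00000020890, chromosome 11, 69218117 to 69237036, minus strand) makes cyclic GMP in photoreceptor outer segments. It had 0 counts in each of the 3 Prm2+/+ and 3 Prm2+/- libraries and 58.0, 27.4 and 33.8 normalized counts in the 3 Prm2-/- libraries, from 64, 27 and 32 recovered counts. Reads were thus found in the Prm2-/- libraries alone, where the highest was about as far from the lowest as the lowest from 0. The mean was 39.7 ± 16.1 (SD, n = 3). A floor of 3 counts in the library with the smallest size factor gave a lower bound of 11.98-fold over either other genotype. That bound depends on the floor chosen. The summed level of 6 photoreceptor markers was 48.5 to 61.9 in Prm2+/+, 53.9 to 57.3 in Prm2+/- and 42.6 to 48.6 in Prm2-/-, and thus not higher where Gucy2e was. Pde6b and Rcvrn were at 0 in all 9 libraries, 0 of 3 tested markers were called by limma with 0 at an unadjusted p under 0.05, and Sag, with the highest mean, had an LFC of -0.10.

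Of 23 other genes of guanylate cyclases and cyclic GMP, 21 were in the table and 13 tested, with 0 called in limma, edgeR or DESeq2, 1 at an unadjusted p under 0.05 and a median LFC of 0.002. Gucy2f, Gucy2g, Gucy1b2 and Prkg2 were at 0 in all 9 libraries. The gene with an unadjusted p under 0.05 was Prkg1, a cyclic GMP-dependent kinase, with 351, 34.3 and 5.5 normalized counts in Prm2+/+, 444, 402 and 429 in Prm2+/- and 398, 398 and 397 in Prm2-/- (LFC 3.20, adjusted p = 0.624 in limma). Only 2 of the 3 Prm2+/+ libraries were low for Prkg1. Pde6d, with the highest mean of the list, had an LFC of 0.52 (standard error 0.31). It had 358, 340 and 154 normalized counts in Prm2+/+ and 434, 422 and 300 in Prm2-/-.

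Art1 (ENSMUSG00000030996, chromosome 7, 102101743 to 102113933, plus strand) attaches ADP-ribose to arginines of proteins at the cell surface. It had 67.5, 103 and 65.2 normalized counts in Prm2+/+, 5.93, 62.1 and 56.6 in Prm2+/- and 4.53, 2.03 and 3.17 in Prm2-/-. Prm2+/- replicates 2 and 3 lay just under the lowest Prm2+/+ library, whereas replicate 1 lay just above the highest Prm2-/- library. The means were 78.5 ± 21.1, 41.5 ± 31.0 and 3.24 ± 1.25 (SD, n = 3 each), and Prm2+/+ was 24.2-fold above Prm2-/- (LFC -4.24, standard error 0.79). The Prm2-/- libraries held 10 recovered counts of Art1 in all (exact Poisson 95% interval 4.80 to 18.4) and the Prm2+/+ libraries 226 (197 to 257). The LFC of Prm2+/- against Prm2+/+ was -1.41 (standard error 0.79), and -0.37 without Prm2+/- replicate 1.

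Art1 overlaps 2 genes of the opposite strand. Art5, another arginine ADP-ribosyltransferase, overlaps it by 7747 bp with no shared exonic base and was not called (LFC -0.13, limma adjusted p = 0.837). Chrna10 overlaps it by 2668 bp, 1025 of them exonic in both, and had 0 counts in all 9 libraries. Of 9 listed genes of arginine ADP-ribosylation, 7 were in the table and 4 tested. By limma, edgeR and DESeq2 0 were called, 0 had an unadjusted p under 0.05, and the median LFC was 0.08. Art3, with the highest mean, had an LFC of 1.01 (standard error 0.93). That LFC rests on Prm2+/+ replicate 3, as Art3 had 668, 667 and 44.2 normalized counts in Prm2+/+ and 523, 559 and 561 in Prm2-/-. Art2b and Adprhl1 were at 0 throughout. The summed level of 8 skeletal muscle markers was 8.55 to 30.0 in Prm2+/+, 11.9 to 38.0 in Prm2+/- and 21.3 to 22.6 in Prm2-/-. Tnnt3, Myh4 and Myh1 were at 0 in all libraries. Mb, the only marker tested, was not called in limma (LFC 1.05, standard error 0.86, adjusted p = 0.762).

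Bspry was high in 4 libraries and low in 5. Bspry (ENSMUSG00000028392, chromosome 4, 62480053 to 62497298, plus strand) binds 14-3-3 proteins and the TRPV calcium channels of epithelia. It had 38.0, 37.5 and 42.0 normalized counts in Prm2+/+, 819, 47.5 and 45.1 in Prm2+/- and 805, 862 and 876 in Prm2-/-. Prm2+/- replicate 1 lay inside the Prm2-/- range, and the other Prm2+/- libraries lay just above the Prm2+/+ range. Prm2-/- was 21.6-fold above Prm2+/+ in the mean (848 ± 37.6 against 39.2 ± 2.46, SD, n = 3 each). The LFC was 4.40 (standard error 0.98). This error pools the spread within all genotypes, which for Bspry was widest in Prm2+/- (304 ± 446). The LFC of Prm2+/- against Prm2+/+ was 1.61 (standard error 0.98), and 0.24 without replicate 1 of Prm2+/-. Of 9 genes for 14-3-3 proteins and TRPV channels, 6 were tested and 0 called by limma, edgeR or DESeq2, with 0 at an unadjusted p under 0.05 and a median LFC of 0.05. Ywhae, with the highest mean, had an LFC of 0.05 (standard error 0.08).

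The RIKEN gene 2010109A12Rik (ENSMUSG00000029384, chromosome 5, 93206518 to 93213475, plus strand) was the only one of the 8 whose 3 Prm2+/- libraries all stood at the Prm2-/- level. It had 382, 343 and 355 normalized counts in Prm2+/+, 194, 196 and 186 in Prm2+/- and 196, 192 and 151 in Prm2-/-. The Prm2+/+ libraries stood above the other 6, and 2 of the 3 Prm2+/- libraries lay inside the Prm2-/- range while the third exceeded its highest library slightly. The means were 360 ± 20.0, 192 ± 5.16 and 179 ± 24.7 (SD, n = 3 each), so that Prm2+/+ was 1.87-fold above Prm2+/- and 2.01-fold above Prm2-/-. The LFC was -0.90 for Prm2+/- and -1.01 for Prm2-/- against Prm2+/+, and -0.11 between the mutant genotypes (standard error 0.12 each).

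**Figure D1:**
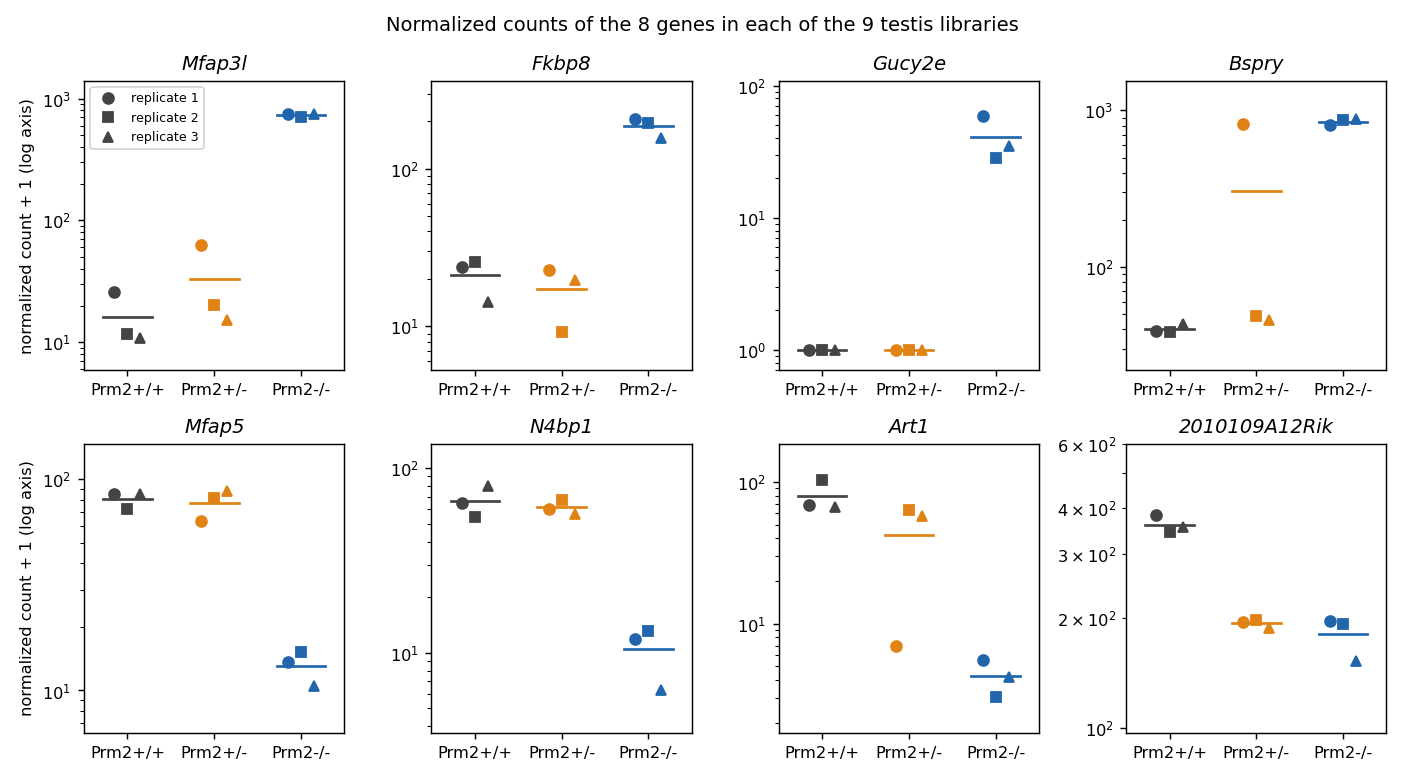
Normalized counts plus 1 (log axis) of the 8 genes in the 9 testis libraries, with 1 point per library, marker shapes for the replicate number and a line at the mean of each genotype. Prm2+/- replicate 1 stood at 819 normalized counts of Bspry and 5.93 of Art1, next to the Prm2-/- libraries, while the 3 Prm2+/- libraries of 2010109A12Rik were between 186 and 196.

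Over the 6 lists together, 69 genes were tested and 0 were called between any pair of genotypes in limma, edgeR or DESeq2. At an unadjusted p under 0.05 there were 5 for Prm2-/- against Prm2+/+ (7.25%, beside 7.33% of all genes tested), 4 for Prm2+/- against Prm2+/+ (5.80%, beside 4.24%) and 7 for Prm2-/- against Prm2+/- (10.1%, beside 5.44%). The LFC of Prm2-/- against Prm2+/+ was positive for 43 of 69 (62.3%), against 52.9% of all genes tested. For Prm2+/- against Prm2+/+ it was positive for 34 (49.3%, against 51.9%). For Prm2-/- against Prm2+/- it was positive for 38 (55.1%, against 49.0%). With only the 6 samples compared, Phb2 was called in limma (1 of 69, adjusted p = 0.0399), as it was without Prm2+/- replicate 1 (adjusted p = 0.0230). Prkg1 was called without Prm2+/+ replicate 1 (adjusted p = 0.0341) and Wwp2 without Prm2+/+ replicate 2 (adjusted p = 0.000400).

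To place the Prm2+/- libraries, each was expressed on the log2 scale as a percentage of the way from the Prm2+/+ mean to the Prm2-/- mean. Gucy2e was at 0% in all 3. N4bp1 was at 4.34%, -1.05% and 7.65% in replicates 1, 2 and 3, Mfap5 at 13.4%, -0.329% and -4.90%, and Fkbp8 at 4.58%, -36.5% and -2.31%. These 4 genes kept all Prm2+/- libraries on the Prm2+/+ side.

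Mfap3l had its Prm2+/- libraries at 37.1%, 7.82% and 0.437%, with replicate 1 between the groups. Bspry was at 98.9%, 6.22% and 4.53%, and Art1 at 82.3%, 7.11% and 10.3%. For both, 1 library had changed sides and the others had not. 2010109A12Rik was at 88.1%, 86.2% and 93.6%. Replicate 1 was the Prm2+/- library furthest towards Prm2-/- for 5 of the 8 genes and replicate 3 for 2 of them. Gucy2e gave no order. The 5 include Fkbp8 and Mfap5, for which replicate 1 stayed near the Prm2+/+ mean (4.58% and 13.4%). The order was not counted over all genes tested, so nothing general is read from it.

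**Figure D2:**
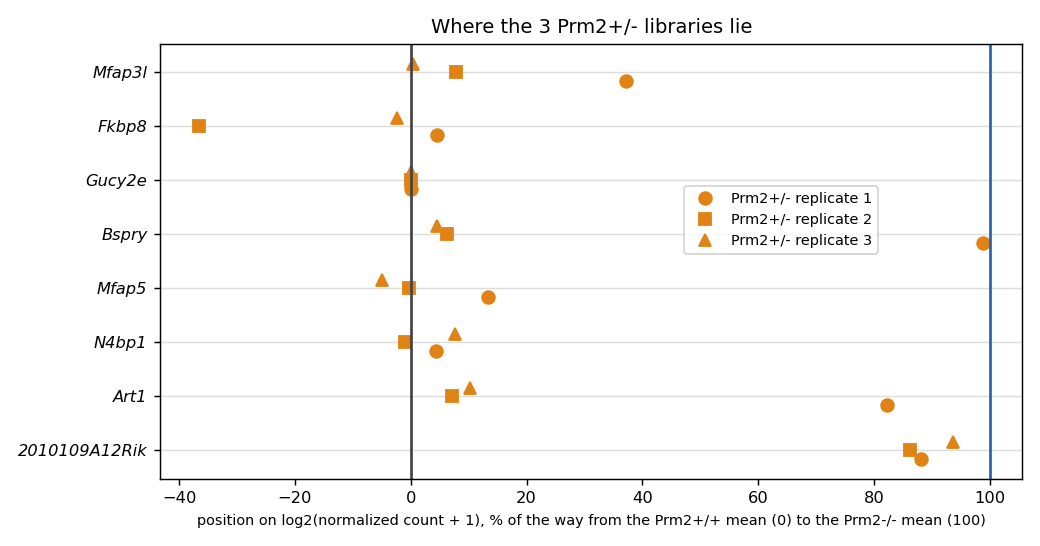
Position of the 3 Prm2+/- libraries for each gene on log2 of the normalized count plus 1, in percent of the way from the Prm2+/+ mean (0, dark line) to the Prm2-/- mean (100, blue line). Replicate 1 of Prm2+/- lay at 98.9% for Bspry and 82.3% for Art1, and all 3 libraries of 2010109A12Rik lay between 86.2% and 93.6%.

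The 3 Prm2-/- libraries lay above the 3 Prm2+/+ libraries for 4 of the 8 genes, as for 6.92% of the genes tested, and below them for the other 4, as for 7.1%. The choice of the genes fixed this count, and it largely set the counts of the Prm2-/- libraries against the other groups, from which nothing is read. Against all other 6 libraries, the Prm2-/- libraries were higher for Mfap3l, Fkbp8 and Gucy2e (3 of 8, beside 2.37% of all genes) and lower for Mfap5, N4bp1 and Art1 (3 of 8, beside 2.2%). The Prm2-/- libraries exceeded the Prm2+/- libraries for 3 genes (7.47% of all genes) and lay below them for 3 (7.25%). The Prm2+/- libraries were all above the Prm2+/+ libraries for Bspry (1 of 8, against 4.88% of all genes) and all below them for Art1 and 2010109A12Rik (2 of 8, against 4.56%). Both comparisons with Prm2+/+ share the Prm2+/+ libraries.

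The widest gap between libraries is described next, and since it mostly separates Prm2-/- from Prm2+/+, on which the genes were selected, its counts carry no weight. A gene was said to take separate levels when the widest gap between neighbouring libraries was at least 2 on the log2 scale and wider than the spread within either level. This held for 7 of the 8 genes and for 1970 of the 14893 genes tested (13.2%), and with a gap of at least 1 it held for the same number of the 8 and for 2956 genes (19.8%). The gap was 4.83 for Gucy2e, 4.05 for Bspry, 3.47 for Mfap3l, 3.05 for Art1, 2.62 for Fkbp8, 2.06 for Mfap5 and 2.05 for N4bp1. For 2010109A12Rik it was 0.80, between the Prm2+/+ libraries and the other 6.

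Within 100 kb, 74 genes are annotated, 64 are in the table and 37 were tested. Of these 37, 0 were called between any pair of genotypes in limma or edgeR. For Prm2-/- against Prm2+/+, 6 of the 37 (16.2%) had an unadjusted p under 0.05, against 7.33% of all genes tested, and DESeq2 called 2 (5.41%, beside 0.866% of all genes tested). Those 2, named after their values were seen, were Rex1bd and Isyna1, both near Fkbp8. Rex1bd had 58.0, 46.1 and 63.0 normalized counts in Prm2+/+, 101, 79.5 and 86.6 in Prm2+/- and 88.7, 108 and 96.1 in Prm2-/- (LFC 0.80, adjusted p = 0.254 in limma and 0.0381 in DESeq2). Isyna1, which makes inositol phosphate, had 66.5, 28.9 and 26.5 in Prm2+/+, 42.5, 32.0 and 38.0 in Prm2+/- and 1434, 67.0 and 1338 in Prm2-/- (LFC 3.73, adjusted p = 0.518 in limma and 6.18e-05 in DESeq2). Its high level was in replicates 1 and 3 of Prm2-/- and not in replicate 2, without which limma called it (adjusted p = 0.00354). Pole3, near Bspry, had 324, 335 and 324 normalized counts in Prm2+/+, 931, 965 and 906 in Prm2+/- and 339, 956 and 971 in Prm2-/-. All its Prm2+/- libraries were thus high, and Prm2-/- replicate 1 stood near the Prm2+/+ level. Without that replicate, limma called Pole3 between Prm2-/- and Prm2+/+ (adjusted p = 0.000875). In the other comparisons DESeq2 called 1 of the 37 each (2.7%), Pole3 for Prm2+/- against Prm2+/+ (adjusted p = 0.0228, beside 0.376% of all genes) and Isyna1 for Prm2-/- against Prm2+/- (adjusted p = 3.41e-05, beside 0.712%).

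None of the nearest tested genes was called in limma. Ell, which starts 4129 bp beyond the end of Fkbp8, had an LFC of -0.03 (standard error 0.16). Ccni, 23 bp from 2010109A12Rik, was at an LFC of -0.05 with a standard error of 0.09 (limma, adjusted p = 0.881), from 860 ± 32.8, 895 ± 84.0 and 829 ± 37.3 normalized counts (SD, n = 3 each), and Ccng2 on its other side had an LFC of 0.95 (standard error 0.68). The nearest tested genes of Bspry were Wdr31 (LFC 0.15, standard error 0.30) and Alad (-0.20, standard error 0.17). Those of Gucy2e were Aloxe3 (-0.15, standard error 1.67) and Cntrob (-0.03, standard error 0.79), and those of Art1 beside the overlapping Art5 were Xntrpc (-0.73, standard error 0.77) and Nup98 (-0.24, standard error 0.28). Rimklb, next to Mfap5, had an LFC of -0.34 (standard error 0.15), and Gm10638, next to N4bp1, one of -0.001 (standard error 0.09). Mfap3l had no tested gene within 100 kb.

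Within 500 kb, 133 genes were tested and limma called 1 between Prm2-/- and Prm2+/+ (0.752%, beside 0.181% of all genes tested). This was Gm27246, 229387 bp from N4bp1 and named after its values were seen. It had 0 normalized counts in each of the 3 Prm2+/+ libraries, 8.90, 11.0 and 11.5 in Prm2+/- and 22.6, 16.2 and 25.3 in Prm2-/- (adjusted p = 0.00294 for Prm2-/- and 0.0193 for Prm2+/- against Prm2+/+ in limma). Its Prm2+/- libraries were thus between the other genotypes, whereas those of N4bp1 were at the Prm2+/+ level.

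**Figure D3:**
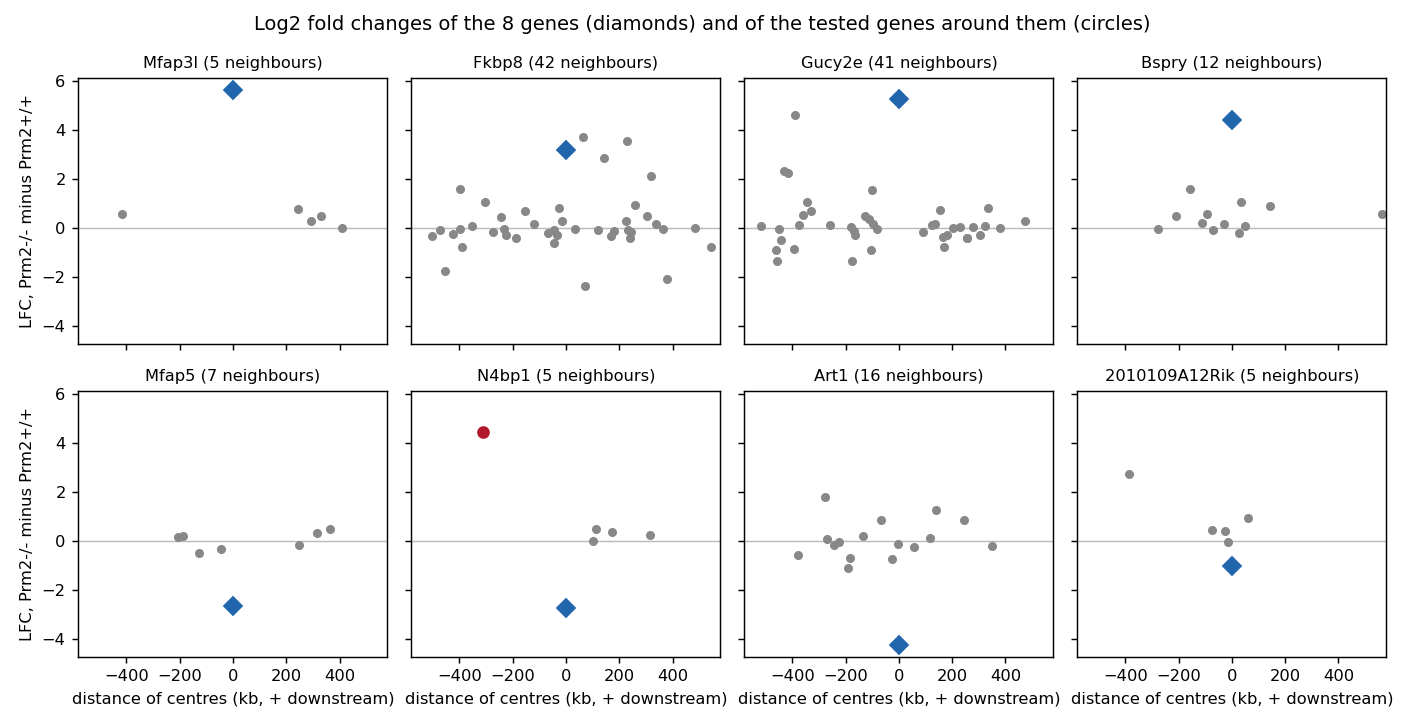
LFC of Prm2-/- against Prm2+/+ for each of the 8 genes (blue diamonds) and for the tested genes within 500 kb of it (circles, red where the adjusted p in limma was under 0.05), by the distance between gene centres along the strand of the gene. Only 1 of the 133 neighbours was called, Gm27246 near N4bp1, and Mfap3l had 5 neighbours and Fkbp8 42.

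Each gene was set beside the tested genes whose pattern over the 9 libraries was most like its own, measured as the root mean square difference of log2 values after removing the mean of each gene. This is a description without a test, since the 9 libraries share their genotypes and the search ran over all genes tested. Mfap5 and N4bp1 were nearest to each other, at 0.220, and Gm25663 followed at 0.601 from Mfap5 and 0.624 from N4bp1. Gucy2e was nearest to 1300017J02Rik (0.300), which had 0 counts in all Prm2+/+ and Prm2+/- libraries and 34.4, 32.5 and 22.2 normalized counts in Prm2-/-. Fam71f2 was the second for Gucy2e (0.365) and the first for Mfap3l (0.538), which was followed by Nprl3 (0.718). It had 45.0 to 71.3 normalized counts in the 6 libraries with at least 1 wild-type allele and 1886 to 2287 in Prm2-/-.

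The Bspry pattern, with replicate 1 of Prm2+/- on the Prm2-/- side, was met most closely by Porcn (0.187) and Fam53c (0.229). Porcn, which acylates WNT ligands, had 0 counts in 5 libraries, 17.8 normalized counts in Prm2+/- replicate 1 and 20.8, 14.2 and 16.9 in Prm2-/-. For 2010109A12Rik the nearest were Abcg8 (0.169) and 4930527E20Rik (0.202), both with all Prm2+/- libraries at the Prm2-/- level. Abcg8, a sterol transporter subunit, had 21.9, 17.1 and 22.1 normalized counts in Prm2+/+, 10.9, 11.0 and 13.3 in Prm2+/- and 9.96, 11.2 and 10.6 in Prm2-/-. Fkbp8 was nearest to Atp8b5 (0.484) and Sap130 (0.625). Art1 had no close partner, with Mfap5 at 1.08 and Eva1b at 1.12.

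**Figure D4:**
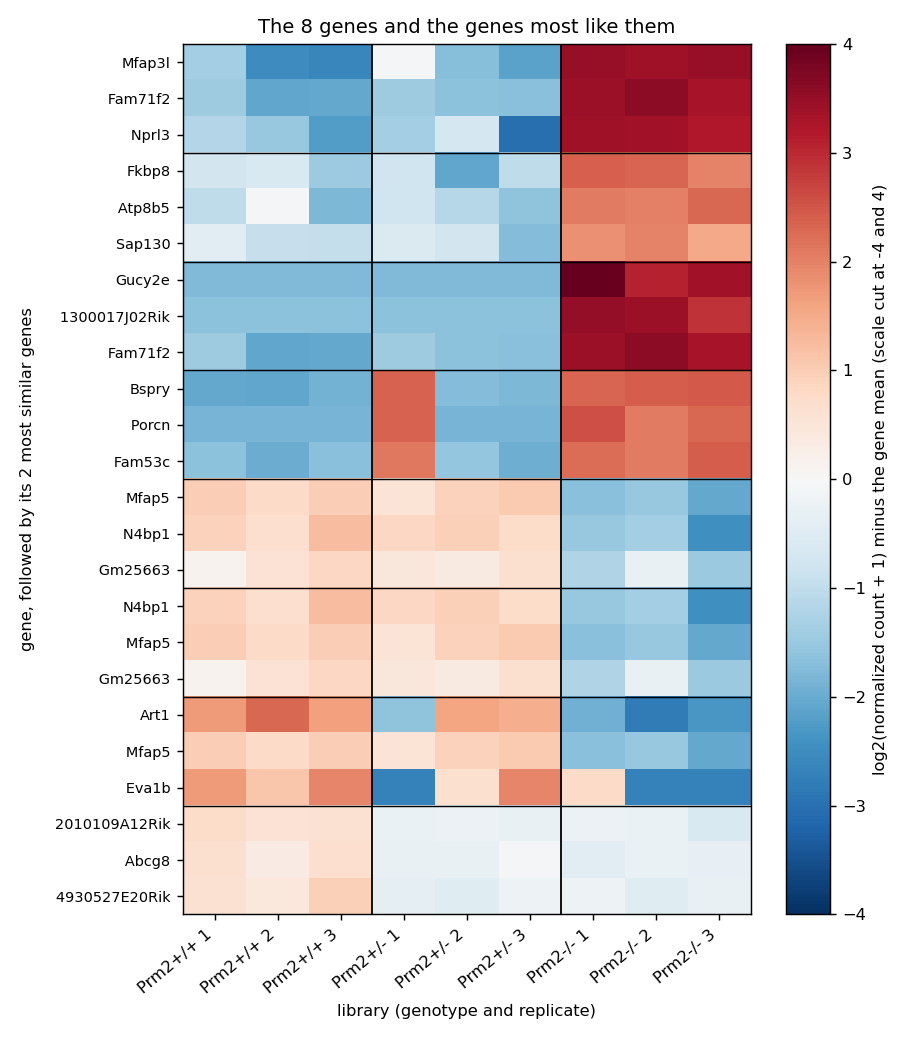
Log2 of the normalized count plus 1, minus the mean of the gene (colour), of the 8 genes and the 2 tested genes most like each of them, in the 9 libraries. Bspry, Porcn and Fam53c are high in Prm2+/- replicate 1 and the 3 Prm2-/- libraries, and Mfap5 and N4bp1, at a root mean square difference of 0.220, are low in Prm2-/- only.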

How the data were processed

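The data were 9 testis RNA-seq libraries, 3 per genotype. Per the labels and the paper, the authors used Trim Galore 0.4.5, mapped reads to GRCm38 with HISAT2 2.1, counted with StringTie 1.3.3 and normalized with DESeq2. The deposited signal values are normalized counts. In each library every value (100%) was a multiple of its smallest step (tolerance 0.1% of a count), a weaker sign for Prm2+/- replicate 1, whose step lies near 1. Here 0 value columns lacked a sample. Positions came from GENCODE M21 (38520 of 38685 rows, 99.6%, matched) and promoters from RefSeq.

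The genes and lists were chosen with earlier results of these data known. Genes kept by filterByExpr were fitted with limma 3.58.1 (functions lmFit and eBayes, trend on) after log2 transformation with a pseudocount of 1, over 9 libraries with genotype as the only term. Calls were made at an LFC beyond 0.5 and a p under 0.05 after Benjamini-Hochberg adjustment. Scripts were tested on simulated data. Named were the 8 genes, Prm2, overlapping and nearest tested genes, listed or near genes called, the 2 genes most like each and the highest-mean gene of each list. Alternatives covered scaling with TMM factors, the pseudocount, filter, samples fitted, replicate block, edgeR 4.0.16 and DESeq2 1.42.0 on recovered counts, and leaving out each library. R 4.3.3 and Python 3.11.15 were used. With 3 libraries per genotype, each p-value sets a difference between genotypes against the spread within the genotypes fitted.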

Additional observations from a re-analysis of the deposited data

How the results depend on the processing

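Of 412 alternative LFCs of the 8 genes, 400 stayed within the SD between replicates of the gene and 12 moved further. The 12 were those of Gucy2e with another pseudocount or tool and those of Mfap5 and N4bp1 with a pseudocount of 5. For Bspry and Art1 this SD holds the wide spread of the Prm2+/- libraries, so that large moves also counted as within it. Their LFC of Prm2+/- against Prm2+/+ ran from 0.24 to 2.95 for Bspry and from -1.96 to -0.37 for Art1. In 4 cases a difference near 0 changed sign with 1 library left out: Prm2+/- against Prm2+/+ for Fkbp8, Mfap5 and N4bp1, and Prm2-/- against Prm2+/- for 2010109A12Rik. Leaving out 1 library, the LFC of Prm2-/- against Prm2+/+ was 5.40 to 6.02 for Mfap3l, 2.90 to 3.33 for Fkbp8, 4.37 to 4.45 for Bspry, -2.75 to -2.49 for Mfap5, -2.92 to -2.39 for N4bp1, -4.45 to -4.02 for Art1 and -1.07 to -0.89 for 2010109A12Rik. The counts of higher and lower genes over the whole table, which serve as background, were 23 and 4 for Prm2-/- against Prm2+/+, 9 and 3 for Prm2+/- against Prm2+/+ and 22 and 4 for Prm2-/- against Prm2+/-. In this order they were 8 and 1, 1 and 0, and 10 and 1 with at least 10 counts in every library. They were 44 and 6, 5 and 6, and 45 and 7 with only the 6 libraries compared, and 104 and 36, 33 and 33, and 89 and 24 with DESeq2. Lower genes were 8, 8 and 9 with no filter beyond a count above 0. With 1 library left out the ranges were 20 to 60 and 2 to 12 (60 without Prm2+/+ replicate 2, 12 without Prm2-/- replicate 1), 6 to 40 and 3 to 17 (40 without Prm2+/+ replicate 2, 17 without Prm2+/- replicate 1), and 16 to 44 and 5 to 10 (44 without Prm2+/- replicate 1, 10 without Prm2-/- replicate 1 or 3). Calls in the related lists and within 100 kb were 0 to 1 each with 1 library left out, 1 in the lists with only the 6 libraries compared, 2 within 100 kb with DESeq2 and 1 within 500 kb. Replicate numbers are shared between genotypes. The deviations of libraries with the same number correlated at -0.0290 to 0.0375 (9 pairs), and those with different numbers at -0.0453 to 0.0343 (18 pairs). The same number thus brought no closer likeness in these deviations, which cannot show whether the samples were handled together. A fit with the replicate block gave 14 and 1, 3 and 3, and 12 and 2 calls in the same order. The fitted standard error between Prm2-/- and Prm2+/+ was largest for Bspry (0.98), followed by Art1 (0.79). For both genes the wide spread of the Prm2+/- libraries enters this error. Counting error limits Art1 and Gucy2e most. The strict filter removed all of the 8 genes but Bspry and 2010109A12Rik, so that it gave no value for the others.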
